A study of Rattus norvegicus with 18 samples.

Results

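Proteasome subunit genes were followed through RNA-seq of rat fibroblasts that lack endogenous MYC and were given human MYC and siRNAs against AHR. The members are the genes whose symbols start with Psma, Psmb, Psmc, Psmd, Psme, Psmf or Psmg followed by a digit, without Psmb8, Psmb9 and Psmb10. This rule found 45 of the 13188 genes in the deposited table, and all 45 are accounted for here. They comprise 14 constitutive subunits of the 20S core, 17 subunits of the 19S particle, 3 assembly chaperones of the 19S particle (Psmd5, Psmd9 and Psmd10), 3 of the 20S core (Psmg1, Psmg2 and Psmg4), 4 activator cap genes (Psme1 to Psme4), the regulator Psmf1, and the germline and thymus subunits Psma8 and Psmb11. Psmc3ip, which encodes a protein of meiotic recombination, matched by its name alone. Psmg3 is not analysed here.

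The proteasome is the ATP-dependent protease that degrades ubiquitin-tagged proteins in the cytosol and nucleus. Its core is a barrel of stacked rings, with alpha subunits that gate the entrance and beta subunits that hold the proteolytic sites. The 19S particle docks on the barrel, and its lid and base bind ubiquitin chains, remove them, and unfold the substrate with a ring of ATPases. The subunits of the core and of the 19S particle are assembled in fixed proportion with the help of dedicated chaperones, and their genes are known to be induced together when proteasome activity falls short. Growing cells depend on the complex for turnover of short-lived regulators, among them MYC itself.

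All 18 libraries came from HO15.19, a single myc-/- line derived from Rat1 fibroblasts, in medium with 10% serum per the labels, and each of the 6 groups had 3 libraries. Human MYC was expressed stably from a retroviral vector. The groups were myc-/- cells without transfection, myc-/- cells given a control siRNA (siCtrl), myc-/- + MYC cells without transfection, and myc-/- + MYC cells given siCtrl, siAHR-2 or siAHR-5, 2 siRNAs against the aryl hydrocarbon receptor gene Ahr. All siRNAs were used at 40 nM and cells were harvested 48 h after transfection. The labels do not say whether the libraries of a group came from separate cultures, so p-values measure only the spread between these libraries, which may be technical.

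The values are normalized log2 values, not counts, so the sequencing depth behind them is unknown. They fall into 2 sets on different scales, a 6-library set that holds myc-/- + MYC with myc-/- siCtrl and a 12-library set that holds the remaining 4 groups. In 36 of the 45 members all 12 libraries lay above all 6, and the share of all genes that did so was not counted. The library medians over all genes were shifted the same way. The highest in the 6-library set was 11.05 and the lowest in the 12-library set was 11.61. Comparisons were therefore made within each set, where MYC was compared in the 6-library set as myc-/- + MYC minus myc-/- siCtrl, and in the 12-library set as myc-/- + MYC siCtrl minus myc-/-. In both, MYC and transfection change together, in opposite orders, and cannot be told apart. Differences are log2 fold changes (log2FC) from limma with adjusted p-values over all 13188 genes. Genes are said to have passed the cutoffs at a change of at least 1.5-fold (log2FC 0.585) with an adjusted p of at most 0.01, and to have risen or fallen at an adjusted p of at most 0.05. In bulk RNA, a change in expressing cells and a change in RNA per cell cannot be told apart.

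As a check of the labels, Ahr was at 13.34, 13.26 and 13.22 in the siCtrl libraries of the MYC cells, at 11.97, 11.97 and 12.03 with siAHR-2 and at 11.95, 11.76 and 11.94 with siAHR-5. The gene listed as Myc lay at 9.47, 9.29 and 9.16 in myc-/- siCtrl and 8.05, 8.08 and 8.01 in myc-/- + MYC, and at 10.90, 10.82 and 10.94 in myc-/- and 8.16, 8.19 and 8.27 in myc-/- + MYC siCtrl. It was higher in the groups labelled as without MYC than in those with it. Whether reads of the human transgene enter it is not given in the sources used here, so it leaves the MYC labels unchecked. Ahr itself was at 12.50, 12.44 and 12.39 without MYC and 12.88, 12.97 and 13.03 with it in the 6-library set, and at 12.01, 11.67 and 11.95 in the myc-/- libraries of the 12-library set, so it was higher with MYC in both. Of 10 fibroblast markers, all were measured, and 5 passed the cutoffs as lower and 1 as higher with MYC in the 6-library set, and 6 and 0 in the 12-library set. Over all genes, 14.3% passed as lower and 12.5% as higher in the 6-library set, and 14.7% and 10.8% in the 12-library set. The collagen gene Col1a1 differed by -1.73 and -5.95. Col3a1 went the other way in the 6-library set, at 15.69, 15.71 and 15.66 without MYC and 17.07, 16.98 and 16.92 with it. In the 12-library set Col3a1 was at 14.93, 14.85 and 14.88 without MYC and 14.78, 14.77 and 14.85 with it. Of 3 epithelial markers measured, 1, Krt8, was higher in both, and 0 of 3 leukocyte and 0 of 3 endothelial markers passed the cutoffs. The fibroblast filament gene Vim lay between 18.32 and 18.57 in the 6-library set and between 18.95 and 19.70 in the 12-library set. The part of these marker differences in the results below was not tested. The myc-/- replicate 2 library was the highest of its group in 40 of the 45 members, with a median deviation of 0.10 from the group means. The median and the counts of calls in the 12-library set are given without it as well. Log2FC of single members there include it unless stated, so the size of small ones, such as those of Psme2 and Psmb3, depends on it.

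Promoters of some members named in the results are shown first. Windows of 250 bases ahead of the start were taken from RefSeq (build GRCr8, which is not the rn6 build of the deposited values) for 40 of the 45 members. Capitals mark, on either strand, the E-box CACGTG that MYC-MAX dimers bind, the antioxidant response element core TGACNNNGC bound by NRF factors, the xenobiotic response element core GCGTG bound by AHR, and the CCAAT box. Psma5 and Psma3, the alpha ring genes with the largest increases with MYC, and Psmb6, of the beta ring, come first. Psmd9, a 19S chaperone gene higher with MYC in both sets, follows, then Psmd13 and Psmc3, which fell with MYC, and Psmg1, among the lowest with siAHR-5.
Psma5 (chr2:198584255-198584504, plus strand): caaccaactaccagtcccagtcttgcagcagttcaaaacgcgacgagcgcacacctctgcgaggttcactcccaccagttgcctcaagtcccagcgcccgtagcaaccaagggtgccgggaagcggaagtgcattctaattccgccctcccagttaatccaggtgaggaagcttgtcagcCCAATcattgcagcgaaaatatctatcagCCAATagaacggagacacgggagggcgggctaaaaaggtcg
Psma3 (chr6:95219499-95219748, plus strand): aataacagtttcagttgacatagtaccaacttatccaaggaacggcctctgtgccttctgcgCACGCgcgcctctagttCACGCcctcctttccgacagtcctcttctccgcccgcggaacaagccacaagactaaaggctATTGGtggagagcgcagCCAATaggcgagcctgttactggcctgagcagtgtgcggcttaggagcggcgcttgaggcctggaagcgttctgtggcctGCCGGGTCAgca
Psmb6 (chr10:55737638-55737887, plus strand): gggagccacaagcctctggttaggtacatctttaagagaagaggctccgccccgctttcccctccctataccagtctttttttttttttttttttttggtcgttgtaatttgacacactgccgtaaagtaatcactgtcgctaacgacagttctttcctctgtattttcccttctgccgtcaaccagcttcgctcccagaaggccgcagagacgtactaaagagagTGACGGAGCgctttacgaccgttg
Psmd9 (chr12:39018265-39018514, minus strand): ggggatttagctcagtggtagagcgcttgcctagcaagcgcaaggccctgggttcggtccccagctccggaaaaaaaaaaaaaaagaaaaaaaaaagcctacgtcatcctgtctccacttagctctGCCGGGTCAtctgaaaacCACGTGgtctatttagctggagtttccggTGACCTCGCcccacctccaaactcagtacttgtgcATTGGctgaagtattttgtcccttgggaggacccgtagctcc
Psmd13 (chr1:205393998-205394247, plus strand): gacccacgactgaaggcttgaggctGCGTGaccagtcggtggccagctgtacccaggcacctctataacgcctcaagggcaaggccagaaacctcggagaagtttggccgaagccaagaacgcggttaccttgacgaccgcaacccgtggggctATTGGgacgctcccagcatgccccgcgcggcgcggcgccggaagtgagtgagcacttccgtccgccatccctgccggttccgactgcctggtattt
Psmc3 (chr3:97487393-97487642, plus strand): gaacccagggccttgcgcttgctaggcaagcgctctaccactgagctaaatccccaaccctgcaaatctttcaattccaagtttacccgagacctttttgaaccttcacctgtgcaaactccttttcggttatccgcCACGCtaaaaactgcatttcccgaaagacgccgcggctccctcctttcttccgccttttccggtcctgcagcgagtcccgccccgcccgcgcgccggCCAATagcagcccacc
Psmg1 (chr11:48755041-48755290, minus strand): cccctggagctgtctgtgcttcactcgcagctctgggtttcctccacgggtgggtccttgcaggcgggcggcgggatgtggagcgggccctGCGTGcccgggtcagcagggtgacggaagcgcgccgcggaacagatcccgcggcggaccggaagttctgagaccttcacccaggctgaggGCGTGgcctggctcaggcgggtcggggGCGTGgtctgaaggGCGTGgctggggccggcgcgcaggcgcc

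Psma5 held 2 CCAAT boxes and neither an E-box nor a TGACNNNGC match, while Psma3 and Psmb6 each held 1 TGACNNNGC match, 12 and 24 bases ahead of the start. Psmd9 held an E-box 106 bases ahead between 2 TGACNNNGC matches at 124 and 77. Psmg1 held 4 GCGTG matches. Across the 40 members with a window, an E-box was found in 5 (12.5%), namely Psma4, Psmb3, Psmc1, Psmd9 and Psme3, against 5.79% of all 27457 rat windows and 7.81% of the 9842 windows of genes in the deposited table. TGACNNNGC was found in 7 members (17.5%), against 10.2% and 12.4%, GCGTG in 20 (50%), against 27.2% and 42.2%, and CCAAT in 19 (47.5%), against 34.3% and 35.6%. Each motif was searched alone and matches of different motifs may overlap. These matches describe the windows and show no binding. Of the 5 members with an E-box, only the window of Psmd9 is printed, and the 5 moved differently with MYC. Psmd9 and Psme3 rose in both sets, while Psmc1 was at -0.21 in the 6-library set and -0.11 in the 12-library set. Psma4 was at -0.057 and -0.061, and Psmb3 at 0.043 and -0.14.

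The comparison in the 6-library set asked how proteasome genes differ between myc-/- cells with and without MYC. The members moved in both directions with MYC. The ring of ATPases was lower, a few alpha and beta ring genes were higher, and the largest decrease was in the lid gene Psmd13. By limma, 6 of the 45 members passed the cutoffs (13.3%), against 26.8% of all genes, with 1 higher (12.5% of all genes were) and 5 lower (14.3%). These counts became 3 and 2 with quantile normalization and 0 and 5 with median centring. At an adjusted p of 0.05, 15 rose and 19 fell (76.2% of all genes changed, 37.3% up and 39% down), and with quantile normalization these became 24 and 12. The median log2FC was -0.020 over the members and -0.0038 over all genes, and its sign depended on the scaling, at 0.13 over the members with quantile normalization and -0.063 with median centring. Among the 2621 genes at least as abundant as the second-lowest constitutive subunit, 54.8% fell, with a median of -0.13, and 15 of the 30 constitutive subunits among them fell.

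Members moved both ways in the 12-library set as well, with Psma3 and Psma5 highest and Psma8 and Psmd13 lowest. By limma, 4 of the 45 members passed the cutoffs (8.89%), against 25.5% of all genes, 2 of them higher (10.8% of all genes) and 2 lower (14.7%), or 2 and 1 with quantile normalization. At an adjusted p of 0.05, 16 rose and 12 fell (64.7% of all genes changed, 31.6% up and 33.1% down), and with quantile normalization 20 and 9. The median log2FC was -0.045 over the members and -0.00014 over all genes, with 0.088 over the members under quantile normalization and -0.0022 under median centring. Without myc-/- replicate 2 the median was -0.0067, 3 members passed the cutoffs as higher and 2 as lower, and 17 rose and 14 fell. Leaving out each other library in turn gave 11 to 15 that rose and 12 to 13 that fell. Of the 2895 genes at least as abundant as the second-lowest constitutive subunit, 43.4% fell, with a median of -0.055, and 11 of the 30 constitutive subunits among them fell. The 2 sets share no library, so their calls can be compared directly. Psmd13 and Psma8 were the members past the cutoffs in both, both lower, which is 33.3% of the 6 called in the 6-library set and 50% of the 4 called in the 12-library set, against 58.8% and 61.9% of the genes called over the whole table. At an adjusted p of 0.05, 11 members rose in both sets, 12 fell in both, and 2, Psmd1 and Psmd5, went opposite ways. Over all 13188 genes, 3166 rose in both, 3343 fell in both and 840 went opposite ways. The shared calls of the members were 67.6% of those in the 6-library set and 82.1% of those in the 12-library set. Over all genes these shares were 64.8% and 76.2%.

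**Figure D1:**
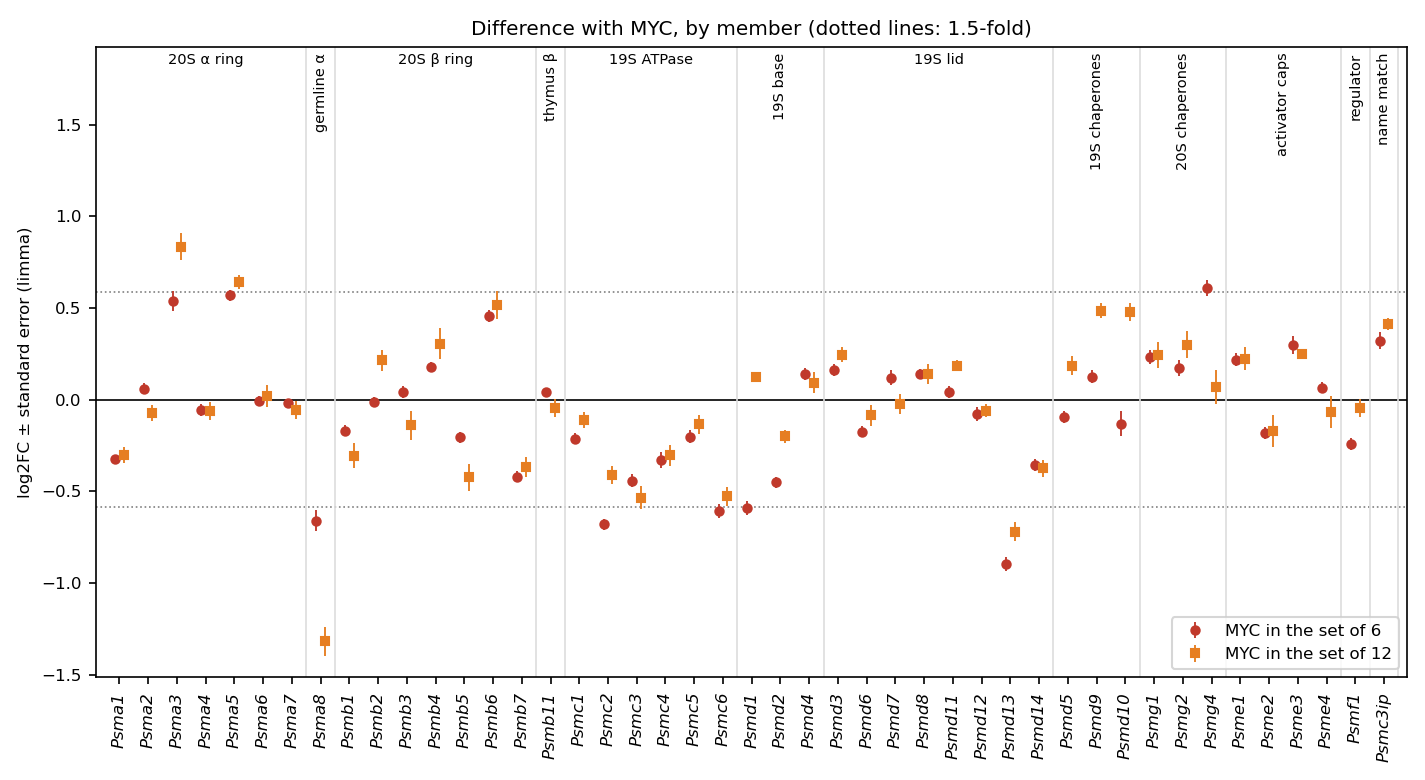
Log2FC with MYC (vertical axis, limma, bars ± standard error) for each of the 45 members, grouped by role, in the 6-library set (circles) and the 12-library set (squares), with 3 libraries per group. All 6 ATPase genes lie below 0 in both sets (Psmc1 not under quantile normalization), Psma3, Psma5 and Psmb6 lie above 0 in both, and Psmd1 lies on opposite sides.

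Over all genes, 37.3% rose and 39% fell in the 6-library set, and 31.6% and 33.1% in the 12-library set. Of the 7 constitutive alpha ring genes, 2 rose and 1 fell in each set. The risers were Psma5 and Psma3, and the gene that fell was Psma1, at -0.33 and -0.30. Psma5 was at 13.68, 13.67 and 13.64 in myc-/- siCtrl and at 14.24, 14.26 and 14.20 in myc-/- + MYC. In the 12-library set it was at 14.30, 14.41 and 14.31 in myc-/- and 14.96, 14.995 and 14.997 in myc-/- + MYC siCtrl, and in both sets every library with MYC lay above every library without it. The log2FC was 0.57 ± 0.029 (SE; adjusted p = 9.22e-09, limma), just under the fold cutoff, and 0.64 ± 0.038 (adjusted p = 2.56e-05, limma).

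Psma3 was at 11.08, 10.93 and 10.91 in myc-/- siCtrl and at 11.44, 11.54 and 11.55 in myc-/- + MYC, and at 10.97, 11.06 and 10.91 in myc-/- and 11.93, 11.70 and 11.82 in myc-/- + MYC siCtrl. The groups again did not overlap. Its log2FC was 0.54 ± 0.054 (SE; adjusted p = 3.31e-06, limma) and 0.84 ± 0.073 (adjusted p = 1.42e-04, limma). Groups without overlap were common, at 78.8% of all genes in the 6-library set (37.9% higher and 40.9% lower), and 36 members, 16 higher and 20 lower. In the 12-library set it was 70.5% of all genes (33.8% and 36.7%), and 35 members, 17 higher and 18 lower. The other constitutive alpha genes, Psma2, Psma4, Psma6 and Psma7, lay from -0.057 to 0.060 in the 6-library set and from -0.074 to 0.021 in the other, and none passed an adjusted p of 0.05.

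Psma8, the alpha subunit used in the germline, was low in fibroblasts. It was at 6.28, 6.13 and 6.10 in myc-/- siCtrl and 5.51, 5.51 and 5.51 in myc-/- + MYC, and at 7.28, 7.53 and 7.26 in myc-/- and 6.04, 6.04 and 6.04 in myc-/- + MYC siCtrl. The libraries with MYC were within 0.01 of each other in each set, at about the lowest value the gene takes there, so the log2FC of -0.66 (adjusted p = 7.28e-07, limma) and -1.32 (adjusted p = 3.13e-05, limma) are differences from that lowest value. Psmb11, the thymus beta subunit, lay between 1.87 and 1.97 in the 6-library set and between 3.32 and 3.52 in the 12-library set, with no call in any comparison. It was at 3.32, 3.32 and 3.36 with siCtrl, 3.36, 3.32 and 3.52 with siAHR-2 and 3.36, 3.36 and 3.35 with siAHR-5, which overlapped.

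The beta ring holds the 3 catalytic genes, and these did not move together. Psmb6, the caspase-like subunit, was at 13.20, 13.22 and 13.27 in myc-/- siCtrl and 13.63, 13.71 and 13.70 in myc-/- + MYC, and at 13.32, 13.54 and 13.30 in myc-/- and 13.82, 13.97 and 13.93 in myc-/- + MYC siCtrl. It rose by 0.45 and 0.52 on the log2 scale (adjusted p = 1.77e-07 and 0.00139, limma). Psmb7, the trypsin-like subunit, fell instead. It was at 13.85, 13.78 and 13.84 without MYC and 13.38, 13.40 and 13.43 with it in the 6-library set, and at 14.84, 14.99 and 14.84 without MYC and 14.46, 14.52 and 14.58 with it in the 12-library set, a log2FC of -0.42 and -0.37 (adjusted p = 1.96e-07 and 0.00152, limma). Psmb5, the chymotrypsin-like subunit that proteasome inhibitors bind, was at 14.25, 14.26 and 14.29 without MYC and 14.02, 14.07 and 14.10 with it in the 6-library set, and at 14.73, 14.98 and 14.76 without MYC and 14.37, 14.45 and 14.39 with it in the 12-library set. Its log2FC was -0.20 and -0.42 (adjusted p = 6.83e-05 and 0.00294, limma), and with quantile normalization 0.015 in the 6-library set. Over the 7 constitutive beta genes, 2 rose (Psmb6 and Psmb4) and 3 fell (Psmb7, Psmb5 and Psmb1) in the 6-library set, against 37.3% and 39% of all genes. For the 12-library set, 3 rose (also Psmb2) and the same 3 fell, against 31.6% and 33.1% of all genes. Psmb3 had a log2FC of 0.043 and -0.14 and no call in either set. Psmb3 was at 13.90, 13.89 and 13.90 without MYC and 13.89, 13.95 and 13.98 with it in the 6-library set, which overlapped, and at 14.55, 14.77 and 14.55 without MYC and 14.38, 14.55 and 14.52 with it in the 12-library set, which did not.

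The 6 ATPase genes of the 19S base lay below 0 in both sets, except Psmc1 under quantile normalization. All 6 fell in the 6-library set with a median log2FC of -0.39, where 54.8% of genes of like abundance fell. In the 12-library set all 6 were below 0 and 4 fell, with a median of -0.36, where 43.4% of genes of like abundance fell. Psmc1 flipped to 0.018 and 0.072 with quantile normalization, and Psmc5 stood at -0.20 and -0.13. Psmc6 was at 13.39, 13.31 and 13.30 in myc-/- siCtrl and at 12.67, 12.75 and 12.75 in myc-/- + MYC, and at 14.38, 14.53 and 14.37 in myc-/- and 13.91, 13.86 and 13.93 in myc-/- + MYC siCtrl. Its log2FC was -0.61 ± 0.038 (SE; adjusted p = 4.68e-08, limma) and -0.53 ± 0.052 (adjusted p = 2.42e-04, limma), with no overlap of groups in either set.

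Psmc2 was at 14.23, 14.18 and 14.20 without MYC and 13.48, 13.52 and 13.57 with it in the 6-library set, and at 14.81, 14.98 and 14.85 without MYC and 14.45, 14.47 and 14.48 with it in the 12-library set. The difference was -0.68 (adjusted p = 4.50e-09, limma) and -0.41 (adjusted p = 6.12e-04, limma). Psmc3 was at 14.98, 14.99 and 15.02 without MYC and 14.49, 14.58 and 14.60 with it, and in the 12-library set at 15.77, 15.96 and 15.79 without MYC and 15.23, 15.34 and 15.35 with it. It fell by 0.44 and 0.53 on the log2 scale (adjusted p = 3.38e-07 and 5.06e-04, limma), and in both sets the lowest library without MYC lay above the highest with it. Psmc2 and Psmc6 dropped under the 1.5-fold cutoff in the 6-library set with quantile normalization, at -0.49 and -0.51.

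The lid gene Psmd13 had the largest decrease among the constitutive subunits in both sets. It was at 14.67, 14.61 and 14.66 in myc-/- siCtrl and 13.67, 13.75 and 13.82 in myc-/- + MYC, and at 15.55, 15.72 and 15.61 in myc-/- and 14.85, 14.92 and 14.95 in myc-/- + MYC siCtrl. The log2FC was -0.90 ± 0.038 (SE; adjusted p = 1.78e-09, limma) and -0.72 ± 0.052 (adjusted p = 6.42e-05, limma), the second becoming -0.53 with quantile normalization, under the fold cutoff. Of the 8 lid genes, 3 rose (Psmd3, Psmd7 and Psmd8) and 3 fell (Psmd13, Psmd14 and Psmd6) in the 6-library set. Of all genes, 37.3% rose and 39% fell there. In the 12-library set 2 lid genes rose (Psmd3 and Psmd11) and 2 fell (Psmd13 and Psmd14), against 31.6% and 33.1% of all genes. Psmd14, the lid enzyme that removes ubiquitin chains, was at -0.36 and -0.37.

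The base scaffold genes Psmd1 and Psmd2 had MYC log2FC that differed between the sets, by 0.72 and 0.25 (adjusted p = 4.24e-08 and 6.83e-04, limma's test of the difference). Psmd1 was at 14.74, 14.68 and 14.67 without MYC and 14.03, 14.11 and 14.18 with it in the 6-library set, where it fell by 0.59 (adjusted p = 6.97e-08, limma), and stood at -0.37 with quantile normalization, under the fold cutoff. Within the 12-library set it was at 15.57, 15.60 and 15.59 without MYC and 15.70, 15.70 and 15.74 with it, and rose by 0.12 (adjusted p = 0.00592, limma). Psmd2 was at 15.97, 16.01 and 16.04 without MYC and 15.52, 15.56 and 15.58 with it, and at 16.94, 16.99 and 16.92 without MYC and 16.73, 16.73 and 16.79 with it, a log2FC of -0.45 and -0.20, the latter 0.025 with quantile normalization. The ubiquitin receptor gene Psmd4 was at 0.14 (adjusted p = 0.00152, limma) and 0.094 (adjusted p = 0.218, limma).

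All 3 chaperone genes of the core rose in the 6-library set, and 2 of them in the 12-library set, while those of the 19S particle split in the 6-library set (1 rose, 1 fell) and all 3 rose in the 12-library set. Over all genes 37.3% rose in the 6-library set and 31.6% in the other. Psmg4, which pairs with Psmg3 in building the alpha ring, was the sole member past the cutoffs as higher in the 6-library set, where quantile normalization added Psma5 at 0.75 and Psmb6 at 0.60. It was at 11.32, 11.36 and 11.44 in myc-/- siCtrl and 12.01, 12.003 and 11.93 in myc-/- + MYC, a log2FC of 0.61 ± 0.043 (SE; adjusted p = 1.52e-07, limma), which median centring put at 0.57. Across the 12-library set it was at 11.81, 12.10 and 11.84 without MYC and 11.92, 12.09 and 11.94 with it, the groups overlapped, and the log2FC was 0.068 ± 0.093 (adjusted p = 0.547, limma). Psmg1 and Psmg2, which form the other alpha ring chaperone, rose in both sets, at 0.23 and 0.17 in the 6-library set and 0.24 and 0.30 in the 12-library set.

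Of the chaperones of the ATPase ring, Psmd9 was at 12.13, 12.19 and 12.20 without MYC and 12.28, 12.30 and 12.33 with it in the 6-library set and at 12.86, 12.97 and 12.91 without MYC and 13.35, 13.41 and 13.44 with it in the 12-library set. It rose by 0.13 and 0.49 (adjusted p = 0.00594 and 1.36e-04, limma). Psmd10, also known as gankyrin, was at 8.53, 8.48 and 8.60 without MYC and 8.32, 8.38 and 8.51 with it in the 6-library set, which overlapped, and at 8.83, 8.82 and 8.87 without MYC and 9.26, 9.33 and 9.37 with it in the 12-library set, which did not. Its log2FC was -0.13 (adjusted p = 0.101, limma) and 0.48 (adjusted p = 3.42e-04, limma). Psmd5 fell by 0.094 in the 6-library set and rose by 0.18 in the 12-library set (adjusted p = 0.0255 and 0.0223, limma), from 12.31, 12.27 and 12.26 to 12.22, 12.16 and 12.18 and from 13.02, 13.15 and 13.02 to 13.23, 13.19 and 13.32.

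Among the activator caps, which open the core without ATP, Psme3, the nuclear form, rose in both sets. It was at 14.27, 14.28 and 14.24 without MYC and 14.43, 14.61 and 14.65 with it, and at 15.29, 15.29 and 15.27 without MYC and 15.53, 15.50 and 15.55 with it, a log2FC of 0.30 and 0.25 (adjusted p = 1.78e-04 and 2.37e-04, limma). Psme1 and Psme2 encode the partners of the interferon-inducible cap. Psme1 rose in both sets, by 0.22 and 0.22, from 13.88, 13.90 and 13.85 to 14.15, 14.11 and 14.03 and from 13.68, 13.89 and 13.70 to 13.96, 13.94 and 14.04. Psme2 did not follow it, at 13.60, 13.57 and 13.57 without MYC and 13.45, 13.40 and 13.34 with it, and 13.35, 13.66 and 13.38 without MYC and 13.29, 13.27 and 13.32 with it, a log2FC of -0.18 (adjusted p = 4.23e-04, limma) and -0.17 (adjusted p = 0.142, limma). Psme4, whose product binds acetylated histones, was at 0.065 and -0.066 with no call in either set, and the core regulator Psmf1 was at -0.24 (adjusted p = 4.58e-05, limma) and -0.043 (adjusted p = 0.473, limma). Psmc3ip, which is no proteasome subunit, rose from 10.71, 10.78 and 10.71 to 11.09, 11.09 and 10.99 and from 11.19, 11.22 and 11.23 to 11.64, 11.62 and 11.63, by 0.32 and 0.41.

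Of the immunoproteasome genes that the rule leaves out, Psmb8 and Psmb9 had MYC log2FC that differed between the sets, by 1.51 and 0.80 (adjusted p = 1.76e-06 and 1.04e-06, limma). Psmb8, which replaces Psmb5 in cells exposed to interferon, was at 9.88, 9.73 and 9.83 without MYC and 9.64, 9.53 and 9.54 with it in the 6-library set and at 8.35, 8.53 and 8.21 without MYC and 9.41, 9.52 and 9.95 with it in the 12-library set, a log2FC of -0.24 and 1.27. Psmb9 was at -0.13 and 0.67 and Psmb10 at -0.20 and -0.33.

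The difference between the sets, the MYC log2FC in the 12-library set minus that in the 6-library set, was tested directly by limma, and 3 of the 45 members passed the cutoffs (6.67%), against 16.5% of all genes, 2 of them higher (6.79% of all genes) and 1 lower (9.67%; 2 and 0 with quantile normalization or median centring). These were Psmd1, at 0.72 (adjusted p = 4.24e-08, limma), Psmd10, at 0.61 (adjusted p = 4.72e-05, limma), and Psma8, at -0.66 (adjusted p = 5.20e-05, limma). Psmg4 followed at -0.54, under the fold cutoff, and passed at -0.60 without myc-/- replicate 1 or without myc-/- + MYC siCtrl replicate 2. At an adjusted p of 0.05, 11 members were higher in the 12-library set and 3 lower (54.9% of all genes differed, 24.8% higher and 30.1% lower), and with quantile normalization 9 and 7 and with median centring 18 and 2. Without myc-/- replicate 2 the 11 became 19 and the call of Psma8 was lost, at -0.57. The 3 became 6 without myc-/- replicate 1 and 5 without myc-/- replicate 3 or myc-/- + MYC replicate 1. Without myc-/- + MYC replicate 1 the call of Psmd10 was lost, at 0.57, as it was without myc-/- siCtrl replicate 3, at 0.58.

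Single libraries also decided some calls near the fold cutoff in the 6-library set. The 5 members lower past the cutoffs became 3 without myc-/- + MYC replicate 1 and 3 without myc-/- siCtrl replicate 1, where Psmc6 stood at -0.58 and -0.58 and Psmd1 at -0.55 and -0.57. Psmg4 stood at 0.58 without myc-/- siCtrl replicate 1, and Psma3 passed at 0.59. Without myc-/- + MYC replicate 3 Psma5 passed at 0.59. In the 12-library set, Psmb6 passed at 0.59 without myc-/- replicate 2.

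**Figure D2:**
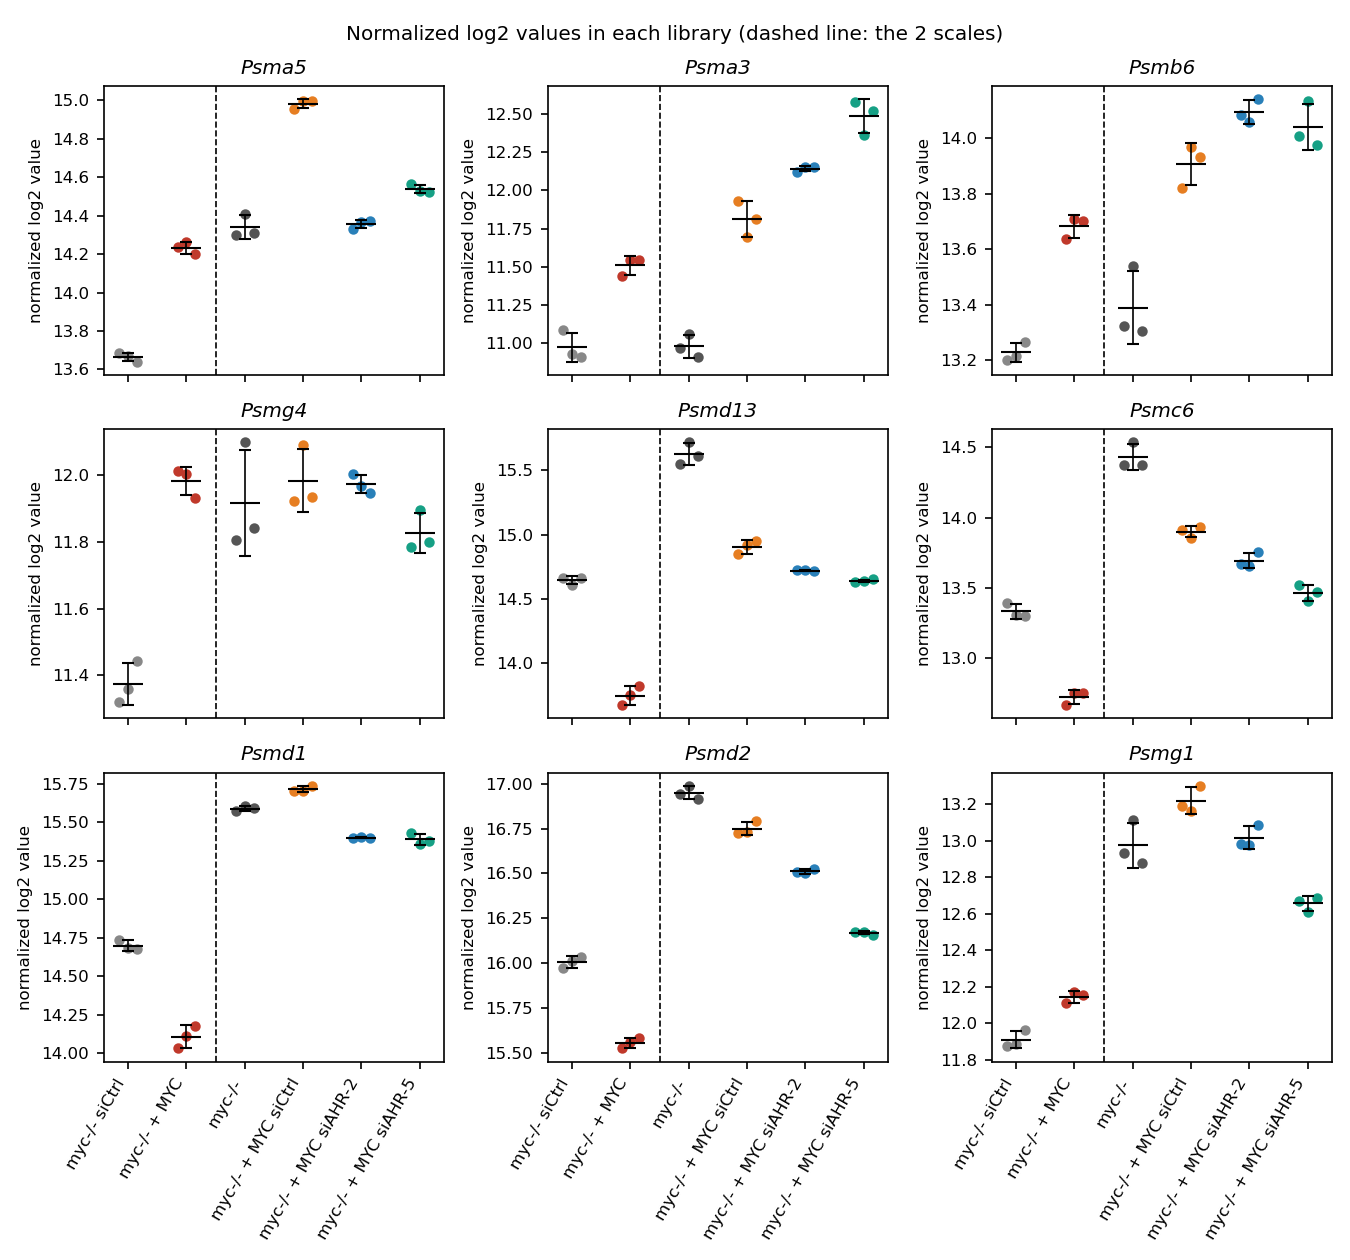
Normalized log2 value (vertical axis) of 9 members in each library by group, with points for libraries and bars for the mean ± SD of 3 libraries. The dashed line separates the 6-library set from the 12-library set, which are on different scales. Psma5 is higher with MYC on both sides of the line and lower with both AHR siRNAs, while Psma3 is higher with MYC and higher again with both.

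The siRNA comparisons asked how proteasome genes differ when AHR is depleted in cells that have MYC. With either siRNA nearly all core and 19S subunit genes were lower by small amounts, and Psma3 was higher. The 2 comparisons share the same 3 siCtrl libraries, which are also those of MYC in the 12-library set, so each comparison's values are given side by side and are not independent of each other.

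With siAHR-2, 36 of the 45 members fell by limma at an adjusted p of 0.05 (80%), against 15.5% of all genes, and 3 rose (6.67%), against 13.7%. The sizes were small, and 1 member passed the cutoffs, Psma5, against 0.47% of all genes. The median log2FC was -0.18 over the members and 2.2e-06 over all genes. All 17 subunits of the 19S particle fell, with a median of -0.23 and a range from -0.35 to -0.11. The standard deviation of their log2FC was 0.065, beside 0.16 over all genes and 0.21 over the 14 constitutive core genes. Of the 14 constitutive core genes 12 fell, with a median of -0.15. The groups did not overlap in 40 members (43.3% of all genes), with siAHR-2 lower in 37 (21.8%) and higher in 3 (21.5%). Without siAHR-2 replicate 2 the 3 that rose became 1 and the 36 that fell became 24. Over all genes, 3860 changed with that library and 2572 without it.

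With siAHR-5, 35 members fell at an adjusted p of 0.05 (77.8%) by limma, against 18.1% of all genes, and 1 rose, against 21.1%. Again 1 member passed the cutoffs, Psma3, which was higher, against 2.33% of all genes. Median centring made 2 more pass as lower, where 165 of all 13188 genes did, against 112 without it. The median log2FC was -0.24 over the members and 0.013 over all genes. Of the 17 subunits of the 19S particle 16 fell, with a median of -0.26, the exception being the lid gene Psmd11 at 0.012. The standard deviation of log2FC was 0.13 over these 17 genes, 0.27 over the 14 constitutive core genes and 0.22 over all genes. Of the 14 constitutive core genes 12 fell, with a median of -0.24. The groups did not overlap in 39 members (50.5% of all genes), with siAHR-5 lower in 36 (22.2%) and higher in 3 (28.3%). The 1 that rose became 2 without siCtrl replicate 2 or replicate 3.

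Marker genes moved with the siRNAs too. With siAHR-2, 0 of the 10 fibroblast markers rose and 3 fell at an adjusted p of 0.05, and 0 of 3 endothelial markers changed. With siAHR-5, 4 fibroblast markers rose, Thy1 at 0.75, past the cutoffs, Pdgfrb at 0.55, Sparc at 0.42 and Col1a1 at 0.22, 2 fell, Vim at -0.48 and Fn1 at -0.10, and 2 of 3 endothelial markers rose, Pecam1 at 0.26 and Cdh5 at 0.15. Their part in the results was not tested.

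Proteasome genes are abundant, and other abundant genes also leaned lower. Of the 2569 genes whose mean log2 value in the siAHR-2 comparison was at least that of the second-lowest constitutive subunit, 37.3% fell at an adjusted p of 0.05, beside 29 of the 30 constitutive subunits among them. With siAHR-5 it was 37.6% of 2780 genes and 28 of 30. With quantile normalization 27 members fell and 3 rose with siAHR-2, and 33 fell and 1 rose with siAHR-5.

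**Figure D3:**
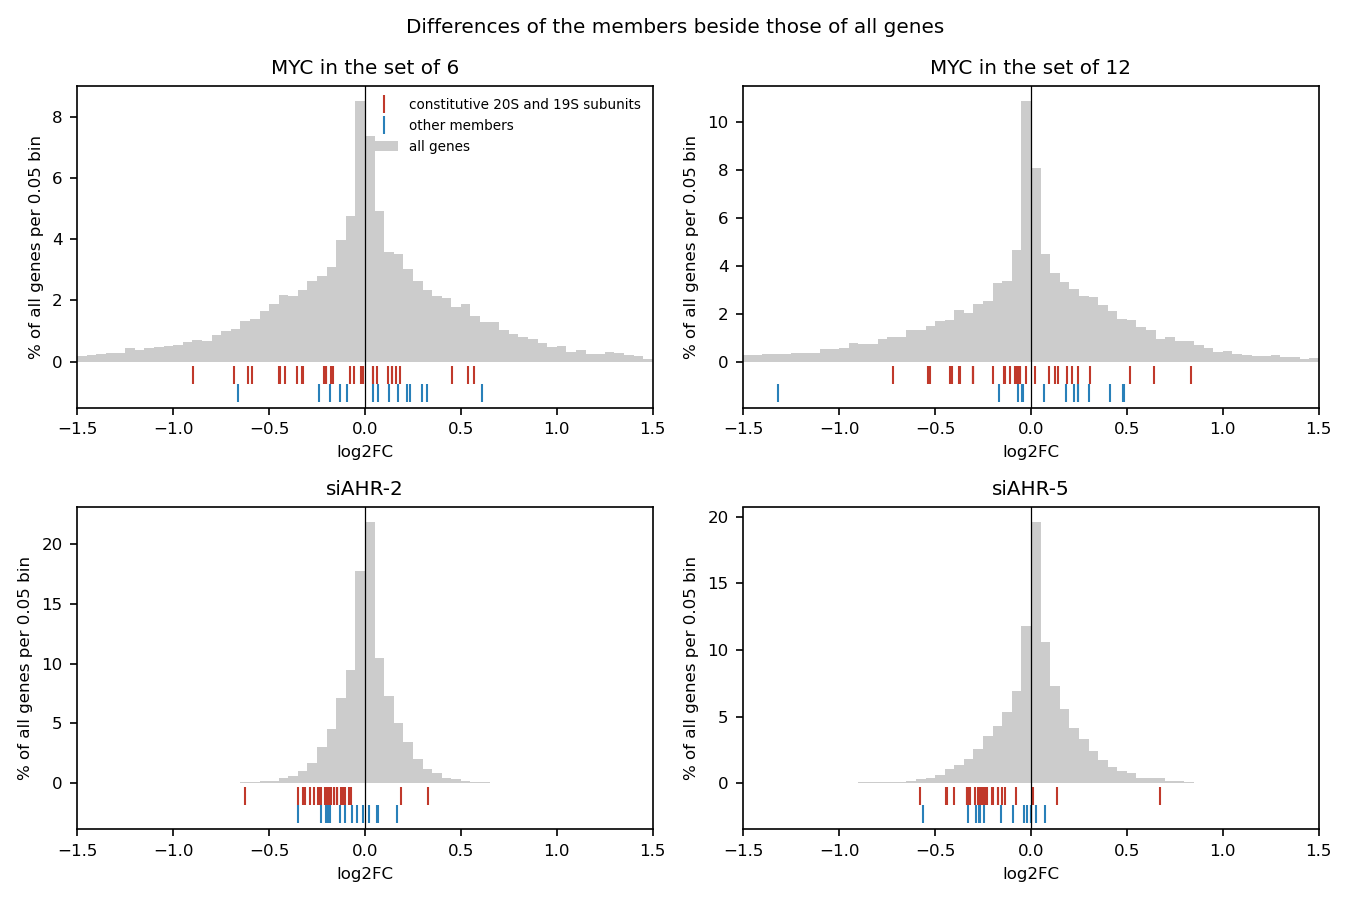
Share of all 13188 genes (grey bars, vertical axis in percent) by log2FC (horizontal axis, bins of 0.05, shown from -1.5 to 1.5) in 4 comparisons, with ticks under the bars for the 31 constitutive core and 19S subunits (upper row) and the other 14 members (lower row). The ticks spread on both sides of 0 with MYC and lie mostly below 0 with siAHR-2 and with siAHR-5, which share their controls.

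Psma5 had the largest decrease with siAHR-2. From 14.96, 14.995 and 14.997 with siCtrl it was at 14.33, 14.37 and 14.37 with siAHR-2 and at 14.56, 14.53 and 14.52 with siAHR-5. The log2FC was -0.63 ± 0.018 (SE; adjusted p = 2.37e-04, limma) and -0.44 ± 0.020 (adjusted p = 2.34e-04, limma), with no overlap of groups. Quantile normalization put the first at -0.58, under the fold cutoff. The siAHR-2 libraries lay in the range of the untransfected myc-/- libraries, at 14.30, 14.41 and 14.31.

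Psma3, in the same ring, went the other way. From 11.93, 11.70 and 11.82 with siCtrl it was at 12.12, 12.15 and 12.15 with siAHR-2 and at 12.58, 12.36 and 12.52 with siAHR-5, all above the highest siCtrl library. The log2FC was 0.33 ± 0.061 (SE; adjusted p = 0.0138, limma) and 0.67 ± 0.081 (adjusted p = 0.00227, limma). With siAHR-5 it stayed past the fold cutoff but missed the adjusted p of 0.01 without siAHR-5 replicate 1, without siAHR-5 replicate 3 and without siCtrl replicate 3, at 0.63, 0.65 and 0.67, where the largest adjusted p was 0.0135.

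Psmb6 was the other core gene that did not fall. It was at 13.82, 13.97 and 13.93 with siCtrl, 14.08, 14.06 and 14.14 with siAHR-2 and 14.01, 14.14 and 13.98 with siAHR-5, and both siRNA groups lay above the siCtrl group. It rose by 0.19 with siAHR-2 (adjusted p = 0.0293, limma) and stood at 0.13 with siAHR-5 (adjusted p = 0.125, limma). Psmb5 was at 14.37, 14.45 and 14.39 with siCtrl, 14.33, 14.29 and 14.27 with siAHR-2 and 14.01, 14.19 and 13.996 with siAHR-5, a log2FC of -0.11 and -0.34, and Psmb7 was at 14.46, 14.52 and 14.58 with siCtrl, 14.29, 14.27 and 14.27 with siAHR-2 and 14.23, 14.30 and 14.21 with siAHR-5, a log2FC of -0.24 and -0.27 (adjusted p = 0.00403 and 0.00387, limma). The remaining core genes lay between -0.20 (Psmb4) and -0.074 (Psma4) with siAHR-2 and between -0.32 (Psma2) and -0.077 (Psmb2) with siAHR-5.

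**Figure D4:**
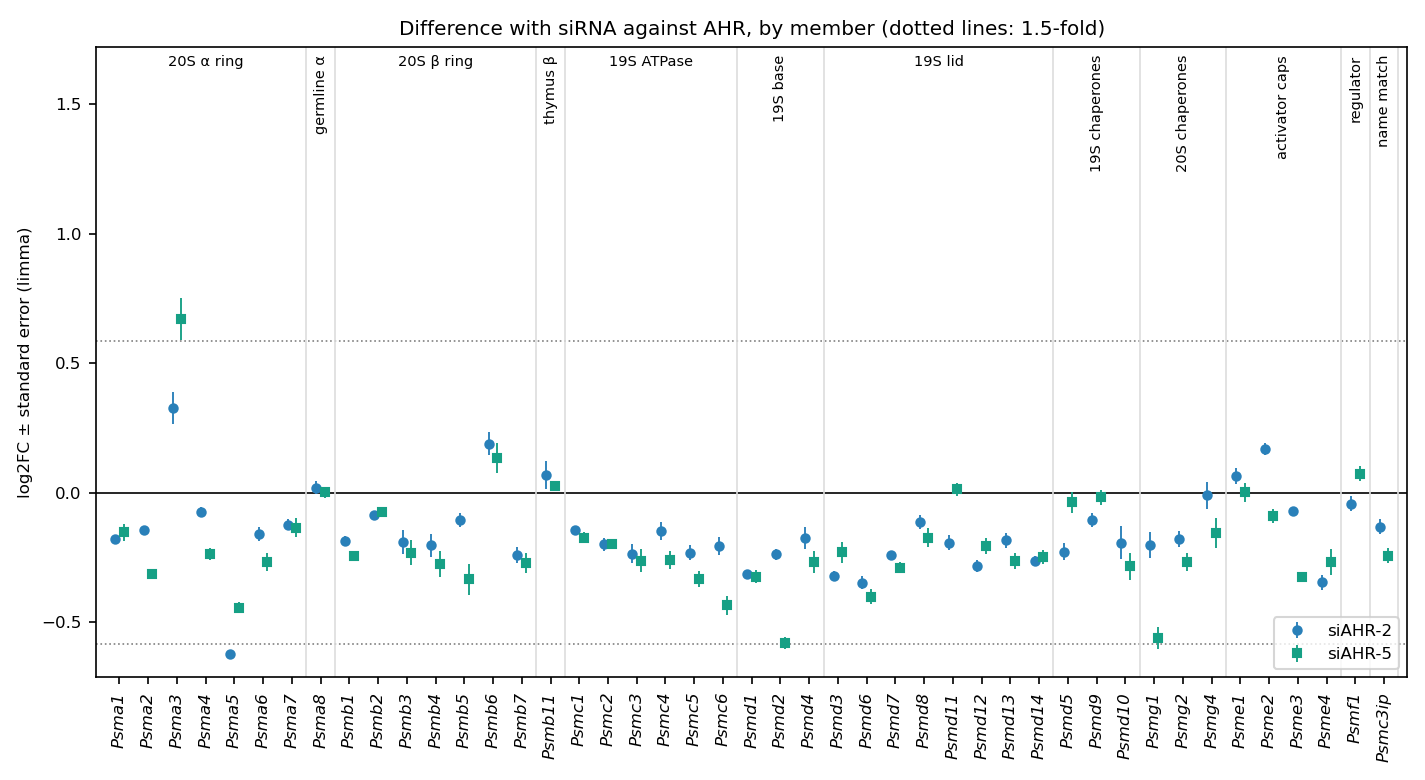
Log2FC with siAHR-2 (circles) and siAHR-5 (squares) against siCtrl in cells with MYC (vertical axis, limma, bars ± standard error) for each of the 45 members, grouped by role, with 3 libraries per group. Most points lie between -0.1 and -0.4, with Psma3 and Psmb6 above 0 for both siRNAs. Psma5 is lowest with siAHR-2, and Psmd2 and Psmg1 are lowest with siAHR-5.

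With siAHR-2 the 6 ATPase genes fell, with a median of -0.20, and with siAHR-5 the median was -0.26. The lowest with siAHR-5 was Psmc6, at 13.91, 13.86 and 13.93 with siCtrl, 13.67, 13.65 and 13.75 with siAHR-2 and 13.52, 13.41 and 13.47 with siAHR-5, a log2FC of -0.21 and -0.44 (adjusted p = 0.00962 and 7.32e-04, limma). The scaffold gene Psmd2 had the largest decrease with siAHR-5. It was at 16.73, 16.73 and 16.79 with siCtrl, 16.51, 16.50 and 16.53 with siAHR-2 and 16.18, 16.17 and 16.16 with siAHR-5, and no 2 of these groups overlapped. The log2FC was -0.24 ± 0.022 (SE; adjusted p = 0.00161, limma) and -0.58 ± 0.023 (adjusted p = 1.94e-04, limma), just short of 1.5-fold. Median centring put it past the cutoffs at -0.64, as did leaving out siCtrl replicate 1 or replicate 2, at -0.59 and -0.59. Psmd1 was at 15.70, 15.70 and 15.74 with siCtrl, 15.39, 15.40 and 15.40 with siAHR-2 and 15.43, 15.36 and 15.38 with siAHR-5, and fell by 0.31 and 0.33.

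In the lid, Psmd6 was at 14.26, 14.33 and 14.33 with siCtrl, 13.94, 13.95 and 13.98 with siAHR-2 and 13.93, 13.86 and 13.92 with siAHR-5. It fell by 0.35 and 0.40 on the log2 scale (adjusted p = 7.96e-04 and 5.50e-04, limma). Psmd3 was at 15.61, 15.67 and 15.67 with siCtrl, 15.33, 15.33 and 15.32 with siAHR-2 and 15.38, 15.50 and 15.37 with siAHR-5, and fell by 0.32 and 0.23 (adjusted p = 6.92e-04 and 0.00816, limma). Psmd11 was at 14.86, 14.77 and 14.81 with siCtrl, 14.63, 14.64 and 14.59 with siAHR-2 and 14.83, 14.82 and 14.83 with siAHR-5, so it fell with siAHR-2, by 0.19 (adjusted p = 0.00678, limma), and overlapped siCtrl with siAHR-5.

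Of the assembly chaperone genes, Psmg1 was at 13.19, 13.16 and 13.30 with siCtrl, 12.98, 12.98 and 13.09 with siAHR-2 and 12.67, 12.61 and 12.69 with siAHR-5. The log2FC was -0.20 ± 0.049 (SE; adjusted p = 0.0305, limma) and -0.56 ± 0.043 (adjusted p = 6.28e-04, limma), and median centring put the second past the cutoffs at -0.62, as did leaving out siCtrl replicate 2, at -0.59. Psmg2 fell by 0.18 and 0.27, and Psmg4 was at 11.92, 12.09 and 11.94 with siCtrl, 12.003, 11.97 and 11.95 with siAHR-2 and 11.78, 11.90 and 11.80 with siAHR-5, with no call. Psmd5 was at 13.23, 13.19 and 13.32 with siCtrl, 13.02, 13.01 and 13.04 with siAHR-2 and 13.23, 13.16 and 13.24 with siAHR-5, and fell with siAHR-2 by 0.23 (adjusted p = 0.00678, limma), beside -0.038 with siAHR-5 (adjusted p = 0.497, limma). Psmd10 stood at -0.19 (adjusted p = 0.0715, limma) and -0.28 (adjusted p = 0.00942, limma), and Psmd9 at -0.11 (adjusted p = 0.0406, limma) and -0.019 (adjusted p = 0.677, limma).

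Among the caps, Psme4 was at 15.38, 15.29 and 15.33 with siCtrl, 14.98, 14.96 and 15.02 with siAHR-2 and 15.12, 14.96 and 15.12 with siAHR-5, and fell by 0.35 and 0.27 (adjusted p = 0.00128 and 0.0102, limma). Psme3 was at 15.53, 15.50 and 15.55 with siCtrl, 15.45, 15.46 and 15.46 with siAHR-2 and 15.22, 15.21 and 15.18 with siAHR-5, and fell by 0.070 and 0.33 (adjusted p = 0.0217 and 4.04e-04, limma). Psme2 was at 13.29, 13.27 and 13.32 with siCtrl, 13.45, 13.49 and 13.45 with siAHR-2 and 13.17, 13.23 and 13.21 with siAHR-5. It rose by 0.17 with siAHR-2 (adjusted p = 0.0046, limma) and fell by 0.091 with siAHR-5 (adjusted p = 0.0383, limma). Its partner Psme1 was at 13.96, 13.94 and 14.04 with siCtrl, 14.08, 14.05 and 14.01 with siAHR-2 and 13.96, 14.04 and 13.95 with siAHR-5, and its groups overlapped. Psmf1 was at 12.88, 12.96 and 12.88 with siCtrl, 12.82, 12.88 and 12.89 with siAHR-2 and 12.96, 12.999 and 12.98 with siAHR-5, with no call. Psmc3ip, the gene matched by name alone, went from 11.64, 11.62 and 11.63 to 11.46, 11.48 and 11.54 and 11.42, 11.39 and 11.34, by 0.13 and 0.24.

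The siRNAs were also compared directly, as siAHR-5 minus siAHR-2. By limma, 0 of the 45 members passed the cutoffs, against 2.18% of all genes (1.33% higher and 0.849% lower), while 26 had an unadjusted p of at most 0.05, as 6176 of the 13188 genes did. At an adjusted p of 0.05, 7 members were higher with siAHR-5 and 16 lower, against 22.1% and 17% of all genes, which median centring made 5 and 24. The groups did not overlap in 29 members, against 49.5% of all genes. The lowest were Psmg1 at -0.36 (adjusted p = 0.00144, limma), Psmd2 at -0.34 (adjusted p = 6.52e-05, limma), Psme2 at -0.26 and Psme3 at -0.26. The highest were Psma3 at 0.34 (adjusted p = 0.00624, limma), Psmd11 at 0.21, Psmd5 at 0.19 and Psma5 at 0.18. The 16 became 10 without siAHR-5 replicate 3, without siAHR-2 replicate 2 or without siAHR-2 replicate 3.

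The other genes of the pathway, 27 of 34 listed being measured, comprise other subunits and partners, the factors and shuttles around the transcription factor NRF1, and ubiquitin with its activating enzymes. With MYC in the 6-library set, Rps27a, which encodes ubiquitin fused to a ribosomal protein, passed the cutoffs as higher at 0.67, and 2 genes passed as lower, the ubiquitin-activating enzyme gene Uba6 at -0.86 and Txnl1 at -0.71. In the 12-library set, 1 passed as higher, the proteasome-bound deubiquitinase gene Uchl5 at 0.59, and 3 as lower, Uba6 at -1.04, the proteasome activator gene Zfand5 at -0.87 and the glycanase gene Ngly1 at -0.61. At an adjusted p of 0.05, 6 of the 27 rose and 16 fell in the 6-library set, where 37.3% and 39% of all genes did, and 4 rose and 11 fell in the 12-library set, where 31.6% and 33.1% did. Pomp, the chaperone that completes the core, stood at -0.024 and -0.0007.

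With siAHR-2, 0 of the 27 passed the cutoffs by limma, while 3 rose and 9 fell at an adjusted p of 0.05, against 13.7% and 15.5% of all genes. With siAHR-5, 1 passed, the shuttle gene Rad23b, which carries ubiquitinated proteins to the 19S particle, and 2 rose and 10 fell at an adjusted p of 0.05, against 21.1% and 18.1% of all genes. Rad23b was at 16.23, 16.22 and 16.14 with siCtrl, 15.75, 15.77 and 15.81 with siAHR-2 and 14.06, 13.995 and 14.04 with siAHR-5, and no 2 groups overlapped. Its log2FC was -0.42 and -2.17, and the siRNAs differed directly by -1.75 (adjusted p = 2.37e-05, limma). The -2.17 and the -1.75 were the lowest log2FC of all 13188 genes in those comparisons, Ahr included. Whether this decrease came through AHR was not tested.

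How reads were assigned among near-identical copies bears on some members. The RefSeq gene table names at least 1 pseudogene or similar copy for 19 of the 45 members, among them Psma3, Psma5, Psmb6, Psmg4, Psmc6 and Psmd1, and none by that naming for Psmd13, Psmd2, Psmg1, Psmc2 and Psmc3. The read counter is not given in the sources used here, so values of the former are uncertain to that extent, and the part of copies in the results was not tested.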

How the data were processed

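RNA-seq of poly-A RNA from 18 libraries was analysed from the table the authors deposited, which holds normalized log2 values for 13188 genes and no counts, so depth, intervals from counting and count models could not be had. Per the submitters' processing notes, reads were processed with HISAT2 2.1.0, the rn6 build and DESeq2. The read counter, the annotation and the exact log2 transformation are not given in the sources used here. The linear sums of the libraries differed, so the values are not CPM.

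Groups were compared within each normalization set with limma 3.58.1 (linear models with moderated variance and a mean-variance trend, R 4.3.3), with Benjamini-Hochberg adjustment over all 13188 genes. This replaces the count test of the study, which needs counts. The cutoffs were 1.5-fold and an adjusted p of 0.01, with an adjusted p of 0.05 and no fold cutoff beside them. Each fit was repeated with quantile normalization, with median centring, jointly over the 18 libraries, without the trend, on genes with a mean of 1 or more, with 1 added on the linear scale, with a block for replicate number, and without each library in turn. The fit was also run on simulated data, and no result here rests on that run. Promoter windows were searched with Python 3.11.15.

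Members, gene lists and tests were chosen with earlier results of these data known. Values in every library are given for the 4 members with the highest and the 4 with the lowest log2FC in each comparison, those past the cutoffs in both MYC comparisons, in opposite directions or with an siRNA, and Psmb5, Psmb6, Psmb7, Psmc3ip, Psme1 and Psme2. Of other genes, Ahr, Myc and pathway genes past the cutoffs are named, and Psmb8, Psmb9, Psmb10, Pomp and the cell type markers that moved were added after their values were seen. Some pathway genes are not reported here.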

Additional observations from a re-analysis of the deposited data

Results flagged for a closer look

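For 3 members the MYC log2FC differed between the 2 sets of libraries past the cutoffs, by limma's test of the difference itself. Psmd1, a scaffold of the 19S base, had a difference of 0.72 (12-library set minus 6-library set), with 0.12 in the 12-library set and -0.59 in the 6-library set. Psmd10, a 19S assembly chaperone, had a difference of 0.61, with 0.48 and -0.13. Psma8, the germline alpha subunit, had a difference of -0.66, with -1.32 and -0.66, and its libraries with MYC lay at about its lowest value in each set. The untransfected and siCtrl groups trade places between the sets, and the scales differ, so MYC, transfection and scale cannot be told apart in these differences.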

How the results depend on the processing

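Counts of members are given as higher and lower. With an adjusted p of 0.05 and no fold cutoff they were 15 and 19 for MYC in the 6-library set, 16 and 12 in the 12-library set, 3 and 36 with siAHR-2, 1 and 35 with siAHR-5, 7 and 16 between the siRNAs, and 11 and 3 between the sets. With quantile normalization the 6-library set had 3 and 2 past the cutoffs and 24 and 12 at an adjusted p of 0.05, the 12-library set had 1 lower past the cutoffs, siAHR-2 had 0 lower, and the difference between the sets had 0 lower past the cutoffs and 7 lower at an adjusted p of 0.05. With median centring the 6-library set had 0 higher, siAHR-5 had 2 lower, the difference between the sets had 0 lower past the cutoffs and 18 higher at an adjusted p of 0.05, and Psmb11 with siAHR-5 turned from 0.026 to -0.034. With all 18 libraries in one fit, 10 were lower between the siRNAs and 5 between the sets at an adjusted p of 0.05. The cause of these changes was not tested. Leaving out 1 library gave 1 to 2 higher and 3 to 5 lower in the 6-library set. In the 12-library set it gave 2 to 3 higher past the cutoffs, and 11 to 17 higher and 12 to 14 lower at an adjusted p of 0.05. With siAHR-2 it gave 1 to 3 higher and 24 to 32 lower at an adjusted p of 0.05. With siAHR-5 it gave 0 to 1 higher and 0 to 2 lower, and 1 to 2 higher at an adjusted p of 0.05. Between the siRNAs it gave 10 to 21 lower at an adjusted p of 0.05. Between the sets it gave 1 to 2 higher and 0 to 2 lower past the cutoffs. At an adjusted p of 0.05 these were 9 to 19 higher and 2 to 6 lower. The replicate numbers mark no stated batch, and in no comparison did all 3 same-numbered pairs correlate in their deviations from the group means by over 0.1. Some pairs did, replicates 1 and 2 with siAHR-5 (0.22 and 0.14), replicates 2 and 3 between the siRNAs (0.13 and 0.14), and replicate 1 for MYC in the 12-library set (0.24). With the replicate number as a block siAHR-2 had 0 lower past the cutoffs, as 0 of all genes passed (62 without the block). At an adjusted p of 0.05 the block left 2 higher and 28 lower with siAHR-2, and 2852 of all genes changed (3860 without it). Of the 49 values of single members compared under each setting, all 49 kept their direction and side of the cutoffs with 1 fit of all libraries, no trend, the filter on low values and the pseudocount, 48 with the block, 44 with median centring and 41 with quantile normalization. Depth is unknown, so differences of low genes such as Psmb11 and Psma8 cannot be weighed against counting error.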
